A study of Arabidopsis thaliana with 36 samples.

Results

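The comparison described here is the change of the hypocotyl's response to simulated shade between 45 and 90 min. It takes the difference between low and high R/FR (the ratio of red to far-red light) at 90 min and subtracts the same difference at 45 min, on a log2 scale. The libraries were chosen by their labels alone, and 8 of the 36 libraries of the study enter it: 2 hypocotyl libraries in each light at each time. The study sequenced mRNA from cotyledons and hypocotyls of Arabidopsis thaliana Col-0 seedlings collected in both lights between 0 and 180 min. All seedlings were wild type and 5 days old, and had grown at 21 °C with 16 h of light and 8 h of dark a day, 1 plate to a sample. On day 6, at zeitgeber time 2 h, they stayed in high R/FR or went to low R/FR, which the sample titles call supplemental far-red light. Organs of 50 seedlings were dissected per sample after acetone fixation, so each value is an average over whole hypocotyls. The labels record no separate cultures or days for the duplicates, and p-values here measure the spread between these samples.

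Leaves of neighbouring plants absorb red light and pass far-red light, and a low R/FR moves phytochrome B to its inactive form. Phytochrome-interacting factors (PIFs) then activate genes for other transcription factors, such as PIL1, HFR1 and the homeodomain-leucine zipper proteins ATHB2, ATHB4 and HAT2. They also activate genes of the TAA1 and YUC enzymes that make auxin, mainly in cotyledons, and auxin carried to the hypocotyl precedes its elongation, which needs loosening and synthesis of cell wall. The comparison asks which transcripts joined, left or grew within the hypocotyl's response as it passed from 45 to 90 min.

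The 8 libraries held 28269498 to 29266636 gene counts, and the 10 most abundant genes took 5.72 to 7.02% of them. Of 33602 genes, 20126 had enough counts to be tested. Of 9 root markers, 8 lay below 1 CPM (a read count scaled to its library's size) in all 8 libraries, the stem cell gene WOX5 and the root hair gene RHD6 at 0 in each. KNAT1, a homeobox gene of stems and the shoot apex, stood at 332 to 416 CPM, and of the other 7 apex markers WUS and CLV3 were at 0, CUC1 and CUC2 below 0.1 CPM, LAS at 0.192 to 0.44 CPM, STM at 0.789 to 1.35 CPM and CUC3 at 0.645 to 1.35 CPM. Vascular markers were all present, among them SUC2, the phloem sucrose carrier, at 39.9 to 128 CPM. The 8 genes listed as mesophyll markers summed to 24410 to 26720 CPM in high and 26280 to 26800 CPM in low R/FR at 45 min. At 90 min they summed to 22860 to 26780 CPM in high and 22640 to 23190 CPM in low R/FR. These transcripts were thus present in every library, and whether they came from mesophyll was not tested. Fewer cells of a type and less RNA per cell cannot be told apart in such bulk samples.

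Between 45 and 90 min the response changed in 4171 genes, 20.7% of those tested (edgeR quasi-likelihood test, Benjamini-Hochberg adjusted p under 0.05). It moved upward in 2285 (11.4%) and downward in 1886 (9.37%), and by at least 2-fold in 916 and 493. The excess of upward over downward calls is not stable: 1957 stood against 2100 with no filter on low counts, and 2021 against 2234 with a stricter filter. The response itself was called in 666 genes (3.31%) at 45 min, higher in low R/FR for 420 (2.09%) and lower for 246 (1.22%), and in 7575 (37.6%) at 90 min, higher for 3851 (19.1%) and lower for 3724 (18.5%). Below, a gene is said to rise or fall when its response did so by this test of the change. Counts within gene lists are to be read against the 11.4% and 9.37% of all genes tested. Without the second high R/FR library of 45 min the count at 45 min was 359, and without the second low R/FR library of that time 382. Across genes, the log2 responses had an SD of 0.447 at 45 min and 0.855 at 90 min.

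Only 3.31% of all genes tested had a called response at 45 min, so most genes of any kind lack one there. Of the 2285 upward genes, 1946 were called higher in low R/FR at 90 min and not called at 45 min. Another 215 were higher at both times and had grown further. Of the 1886 downward changes, 1694 were lower in low R/FR at 90 min and not called at 45 min, and 87 were lower at both times. Of the 666 genes called at 45 min, 272 had no called change. For 137 genes, 81 up and 56 down, the change was called and the response at neither time. A response not called at 45 min is not thereby absent there.

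**Figure D1:**
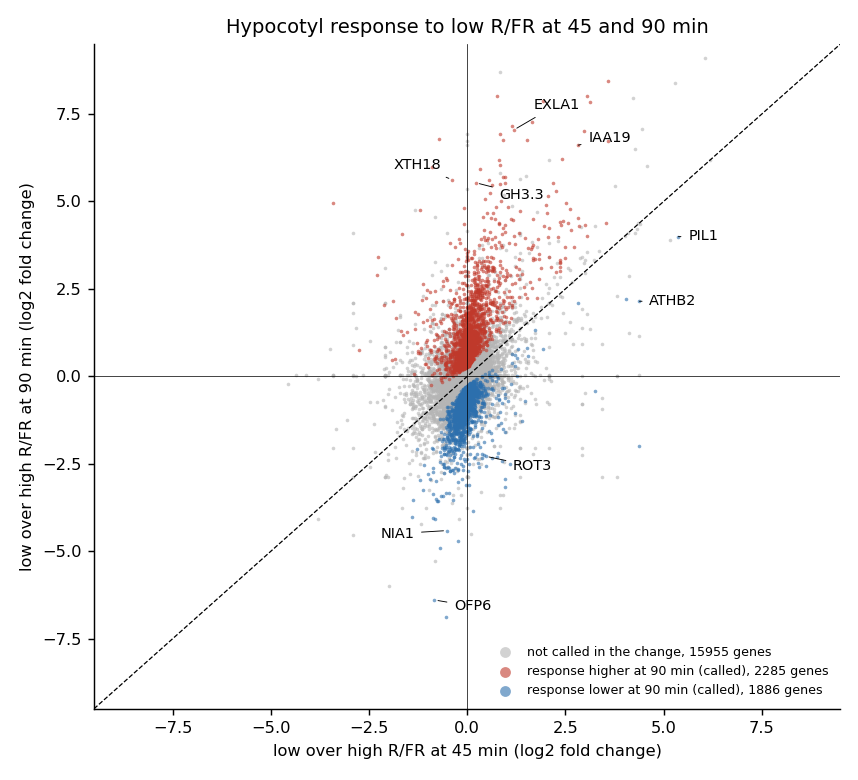
Each point is 1 of 20126 genes, placed by its log2 fold change of low over high R/FR in hypocotyl at 45 min (horizontal) and 90 min (vertical); red and blue points are the 2285 and 1886 genes whose response rose or fell between the times, and the dashed line marks equal responses. The cloud is taller than it is wide, with XTH18 and GH3.3 near 0 at 45 min and above 5 at 90 min, while ATHB2 and PIL1 lie below the line on the right.

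The change can come from either light, and most of it lay in low R/FR. In low R/FR 7659 genes (38.1%) differed between 90 and 45 min, 3971 (19.7%) higher and 3688 (18.3%) lower at 90 min. In high R/FR 1716 (8.53%) differed, 872 (4.33%) higher and 844 (4.19%) lower. The count in high R/FR fell to 1009, 661, 959 and 779 without, in turn, the first or second library of 45 min and the first or second of 90 min. Of the 2285 upward genes, 1861 rose between the times in low R/FR with no call in high R/FR, 125 rose in low and fell in high R/FR, and 87 only fell in high R/FR. Of the 1886 downward genes, 1405 fell in low R/FR alone, 120 also rose in high R/FR, and 101 only rose in high R/FR. The median of the upward genes was 0.78 in low and -0.06 in high R/FR (log2, 90 over 45 min), and that of the downward genes -0.65 and 0.02.

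The promoters of XTH18 and XTH19 are shown because these neighbouring genes on chromosome 4 are both among the 10 with the most increased response. The letters are the 250 bases before each gene's start on the minus strand, from RefSeq on TAIR10.1, read 5′ to 3′, and capitals mark a match to CACATG or its reverse complement CATGTG.
XTH18, 4:14827212-14827461: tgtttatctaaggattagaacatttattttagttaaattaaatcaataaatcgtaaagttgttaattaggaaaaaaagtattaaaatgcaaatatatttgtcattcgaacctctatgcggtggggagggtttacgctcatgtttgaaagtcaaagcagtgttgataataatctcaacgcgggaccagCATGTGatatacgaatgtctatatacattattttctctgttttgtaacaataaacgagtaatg
XTH19, 4:14830225-14830474: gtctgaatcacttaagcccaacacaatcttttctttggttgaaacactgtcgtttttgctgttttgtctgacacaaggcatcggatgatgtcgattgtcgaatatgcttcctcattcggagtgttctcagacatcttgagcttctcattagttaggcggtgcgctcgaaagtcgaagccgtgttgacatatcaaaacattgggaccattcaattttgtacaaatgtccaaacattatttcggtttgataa
Both strands were searched for CACGTG (the G-box, a PIF binding sequence), CACATG (a PIF E-box), TGTCTC and TGTCGG (auxin response elements) and AAAATATCT (the evening element). The single match in the pair was CATGTG in the XTH18 window, and the XTH19 window held none of the 5 motifs. The windows of AT2G34930, OFP6, OFP18 and NIA1, also among the most changed genes, held none either. CACATG or its complement lay in 15% of the windows of 2284 upward genes, 10.8% of those of 1886 downward genes and 11% of those of all 20000 tested genes with a window. For CACGTG the shares were 8.32%, 7.05% and 7.23%, for TGTCTC 11.3%, 10.5% and 10.6%, for TGTCGG 5.87%, 4.88% and 4.64%, and for AAAATATCT 2.41%, 2.7% and 2.44%. A match is a string of letters and no sign of binding, and gene starts in RefSeq and in the authors' annotation coincide for 4151 of 20823 genes compared. For both XTH18 and XTH19 RefSeq places the start farther upstream than the authors' annotation, and the bases between these starts were not searched.

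Of the 10 genes whose response increased most, 4 were XTH genes. XTH22 (AT5G57560; chromosome 5, 23307130 to 23308282, TAIR10), also called TCH4, encodes a xyloglucan endotransglucosylase/hydrolase, an enzyme that cuts and rejoins the xyloglucan tethers of the wall. Its libraries held 9.79 and 12.4 CPM in high and 27.4 and 36.8 CPM in low R/FR at 45 min, and 7.17 and 4.66 CPM in high and 599.9 and 669 CPM in low R/FR at 90 min. Both low R/FR libraries at 90 min lie far above the other 6, and those of 45 min lie above all 4 in high R/FR. The log2 response went from 1.53 ± 0.31 (SE, n = 2 per group) to 6.74 ± 0.37, a change of 5.21 ± 0.46 (edgeR adjusted p = 4.92e-08). XTH18 (AT4G30280; chromosome 4, 14825808 to 14827047) held 2.52 and 7.33 CPM in high and 4 and 3.59 CPM in low R/FR at 45 min, and 1.7 and 1.1 CPM in high and 66.5 and 71.4 CPM in low R/FR at 90 min. At 45 min the lights overlapped, at 90 min they were far apart, and the response changed by 6.00 ± 0.67 (edgeR adjusted p = 1.21e-06). XTH19 (AT4G30290; chromosome 4, 14828712 to 14830016) held 0.143 and 0.492 CPM in high and 0.479 and 0.673 CPM in low R/FR at 45 min, and 0.192 and 0.214 CPM in high and 24.2 and 26.3 CPM in low R/FR at 90 min, and its change was 6.09 ± 0.83 (edgeR adjusted p = 4.4e-06). XTH33 changed by 5.61 ± 0.43, to which a drop of -2.28 in high R/FR added (edgeR adjusted p = 0.000363). Alignments that were not unique were counted apart from the genes, so reads shared between such close relatives may be missing, and single XTH values are uncertain.

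EXLA1 (AT3G45970; chromosome 3, 16896166 to 16897308), an expansin-like protein of the wall, held 2.66 and 2.6 CPM in high and 6.17 and 5.78 CPM in low R/FR at 45 min, and 1.35 and 1.1 CPM in high and 162 and 161 CPM in low R/FR at 90 min. Its response was already called at 45 min (1.18) and reached 7.04, a change of 5.86 ± 0.44 (edgeR adjusted p = 1.59e-09). GH3.3 (AT2G23170; chromosome 2, 9863855 to 9866562), which joins auxin to amino acids, held 12 and 14.3 CPM in high and 17.9 and 12.7 CPM in low R/FR at 45 min, and 7.53 and 7.42 CPM in high and 341 and 353 CPM in low R/FR at 90 min. The lights overlapped at 45 min and were far apart at 90 min, a change of 5.31 ± 0.23 (edgeR adjusted p = 1.28e-13). EXL1, an EXORDIUM-like gene of a family tied to growth under low carbon, changed by 5.93 ± 0.51, from 1.93 to 7.87. AT2G34930, annotated as a leucine-rich repeat disease resistance family protein, had the largest change by this rule, 7.49 ± 0.69, from -0.71 (adjusted p = 0.704) to 6.79. AT3G55840, annotated as an Hs1pro-1 protein, and AT2G27080, annotated as a late embryogenesis abundant family protein, changed by 5.60 ± 0.46 and 5.20 ± 0.37.

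**Figure D2:**
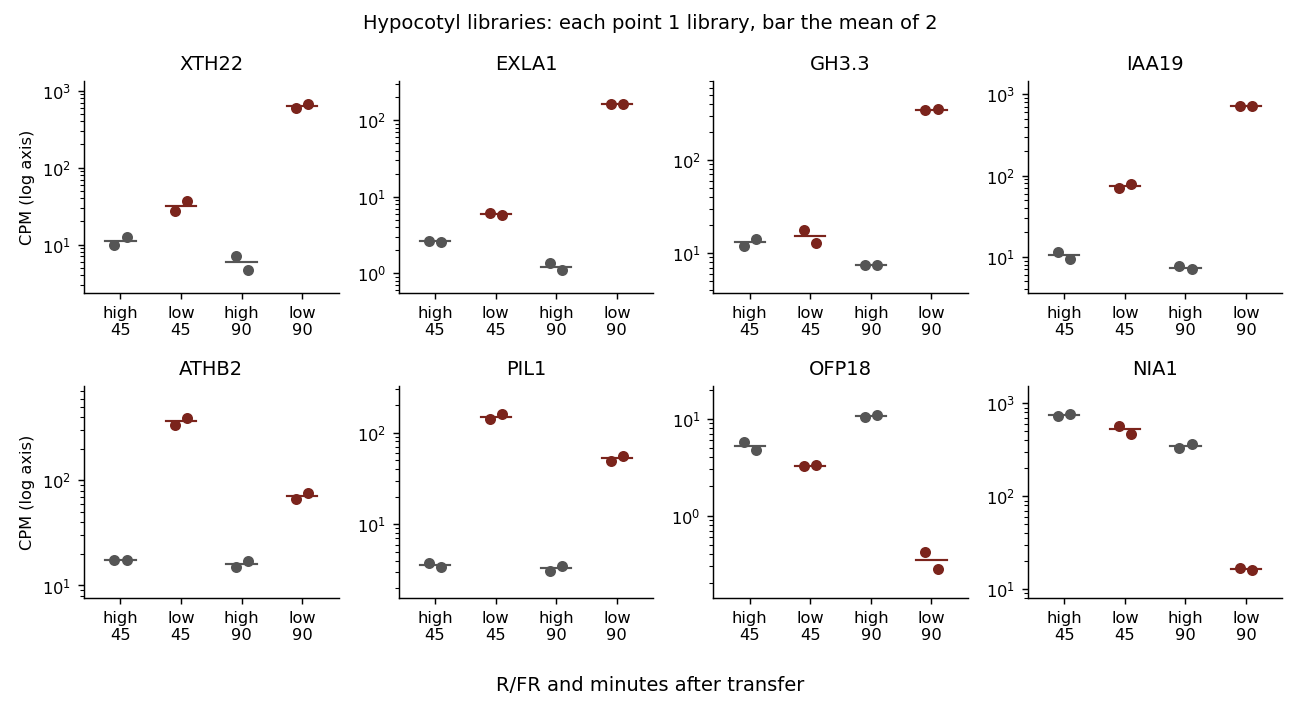
Each panel shows 1 gene and each point 1 hypocotyl library (CPM, log axis) in high or low R/FR at 45 or 90 min, with a bar at the mean of 2. XTH22, EXLA1, GH3.3 and IAA19 are highest in low R/FR at 90 min, ATHB2 and PIL1 are highest in low R/FR at 45 min, and OFP18 and NIA1 are lowest in low R/FR at 90 min.

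Among the 10 genes whose response decreased most, OFP18 (AT3G52540; chromosome 3, 19488546 to 19489850) and OFP6 (AT3G52525; chromosome 3, 19475159 to 19475961) encode OVATE family proteins, transcriptional repressors of plant organ growth, and lie in the same region of chromosome 3. OFP18 held 5.81 and 4.79 CPM in high and 3.24 and 3.31 CPM in low R/FR at 45 min, and 10.4 and 10.9 CPM in high and 0.421 and 0.278 CPM in low R/FR at 90 min. Its high R/FR libraries rose between the times and its low R/FR libraries fell below all others, so its change of -4.22 ± 0.31 (edgeR adjusted p = 1.64e-11) has a part of -3.21 in low R/FR and one of 1.01 in high R/FR. OFP6 held 2.03 and 1.89 CPM in high and 0.874 and 1.32 CPM in low R/FR at 45 min, and 4.73 and 5.36 CPM in high and 0.0281 and 0.0834 CPM in low R/FR at 90 min, and its change was -5.56 ± 0.59 (edgeR adjusted p = 2.36e-08).

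NIA1 (AT1G77760; chromosome 1, 29235803 to 29239445), a nitrate reductase, held 731 and 767 CPM in high and 576 and 474 CPM in low R/FR at 45 min, and 330.1 and 366 CPM in high and 16.9 and 15.9 CPM in low R/FR at 90 min. It fell in both lights between the times (-1.11 in high and -5.0 in low R/FR), and the change of its response was -3.90 ± 0.31 (edgeR adjusted p = 6.36e-09). GATA2, a zinc-finger factor that promotes light-grown development, changed by -3.05 ± 0.29, from a response of 0.75 at 45 min to -2.29 at 90 min. GH9B8, a glycosyl hydrolase of the endoglucanase family, went from 0.49 to -2.55. The other 5 were HOS3-1 of the fatty acid elongase family (-3.26), AT3G52480 of unknown function (-3.16), AT3G15720, a pectin lyase-like protein (-3.15), the glucosyltransferase gene UGT84A4 (-2.88) and the small peptide gene RTFL8 (-2.84). In all 20 of these genes the 4 low-minus-high library differences at 90 min did not overlap those at 45 min, which the rule that chose them required.

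The early shade regulators went both ways: of 12 tested, 3 rose and 6 fell, against 11.4% and 9.37% of all genes, and their median change was -0.35 against -0.01 over all genes tested. ATHB2 (AT4G16780; chromosome 4, 9449114 to 9450743) held 17.7 and 17.3 CPM in high and 338 and 393 CPM in low R/FR at 45 min, and 15.1 and 17.1 CPM in high and 66.8 and 75.6 CPM in low R/FR at 90 min. Its low R/FR libraries dropped between the times while high R/FR stayed level, and the response fell from 4.38 ± 0.16 to 2.15 ± 0.15 (change -2.24 ± 0.21, edgeR adjusted p = 1.07e-08). PIL1 (AT2G46970; chromosome 2, 19295490 to 19297826), a bHLH factor and a standard shade marker, held 3.78 and 3.45 CPM in high and 139 and 160.4 CPM in low R/FR at 45 min, and 3.1 and 3.48 CPM in high and 49.1 and 56 CPM in low R/FR at 90 min. Its response fell from 5.37 to 3.99, a change of -1.38 ± 0.24 (edgeR adjusted p = 9.31e-05). HFR1 (AT1G02340; chromosome 1, 465718 to 467844), a bHLH protein that restrains PIFs, held 22.2 and 19.6 CPM in high and 141 and 154 CPM in low R/FR at 45 min, and 29.6 and 33.9 CPM in high and 133 and 139 CPM in low R/FR at 90 min. Its low R/FR libraries differed little between the times (-0.12), its high R/FR libraries were higher at 90 min (0.60 ± 0.12), and its response changed by -0.72 ± 0.16 (edgeR adjusted p = 0.00123).

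ATHB4 and HAT3, relatives of ATHB2, fell (-1.83 and -1.16) and were still called higher in low R/FR at 90 min (2.21 and 0.78). HAT2, of the same HD-Zip II family and known as auxin-inducible, held 35.4 and 33.9 CPM in high and 182 and 192 CPM in low R/FR at 45 min, and 23.4 and 21.2 CPM in high and 467 and 504 CPM in low R/FR at 90 min. It rose in low R/FR between the times, with a change of 2.01 ± 0.28 (edgeR adjusted p = 1.34e-05). The other 2 that rose, named after their values were seen, were PAR2 at 2.06 ± 0.32 (edgeR adjusted p = 5.16e-05) and PAR1 at 1.21 ± 0.42 (edgeR adjusted p = 0.0446), atypical bHLH proteins that restrain the shade response. BBX25, a B-box cofactor that limits HY5 activity, went from -0.19 (adjusted p = 0.359) to -0.93. Thus within 1 family ATHB2, ATHB4 and HAT3 had smaller and HAT2 a larger response at 90 than at 45 min. HAT1, also of this family, had no called change.

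Of 22 phytochrome, PIF and HY5-group genes, 3 rose (13.6%) and 4 fell (18.2%), against 11.4% and 9.37% of all genes tested. PHYA, the far-red photoreceptor, rose by 0.88 ± 0.11 to a response of 1.04, and FHL, which helps carry phytochrome A into the nucleus, by 1.64 ± 0.23. PIF3 and PIF1, of the PIF family, fell (-1.21 and -0.74). PHYB was higher in low R/FR at both times, with responses of 1.74 ± 0.08 and 1.32 ± 0.08, and its change was -0.42 ± 0.11 (edgeR adjusted p = 0.00404). Of 27 B-box and CONSTANS-like genes, 1 rose and 9 fell. BBX14, BBX15, BBX16 and BBX18 fell (-2.0, -0.89, -0.90 and -0.92). BBX14 held 101 and 87.3 CPM in high and 63.9 and 61.4 CPM in low R/FR at 45 min, and 143 and 145 CPM in high and 23.7 and 24 CPM in low R/FR at 90 min, so it rose in high R/FR while it fell in low R/FR.

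Of 10 auxin synthesis genes tested, 0 rose and 2 fell by the edgeR test (0 rose at an unadjusted p under 0.05, by DESeq2 or by limma-voom), with a median of -0.09. YUC8 (AT4G28720; chromosome 4, 14192583 to 14194256) had 4 and 2 counts over the pairs of high and low R/FR libraries at 45 min and 12 and 34 at 90 min, and its change was not called (adjusted p = 0.263). YUC9 (AT1G04180; chromosome 1, 1104623 to 1105988) had 2, 2, 1 and 3 counts in the same order, too few to show a change. YUC2 and TAA1, the flavin monooxygenase and aminotransferase of the auxin pathway, fell (-2.47 and -1.09), at levels below 1 and 3 CPM in every library. TAA1 lost its call in 8 of the alternative settings.

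Of 27 Aux/IAA genes, which encode repressors made in response to auxin, 17 rose and 2 fell, with a median change of 0.75. IAA19 (AT3G15540; chromosome 3, 5264024 to 5265678) held 11.4 and 9.55 CPM in high and 70.2 and 79 CPM in low R/FR at 45 min, and 7.64 and 7.16 CPM in high and 719.5 and 725 CPM in low R/FR at 90 min. It stood above high R/FR at 45 min in both libraries and rose further, with responses of 2.83 ± 0.21 and 6.61 ± 0.24 and a change of 3.78 ± 0.30 (edgeR adjusted p = 4.88e-09). IAA5 had the same form, from 3.12 to 7.83, and IAA4 held 147 and 131 CPM in high and 259 and 262 CPM in low R/FR at 45 min, and 122 and 126 CPM in high and 568 and 572 CPM in low R/FR at 90 min. IAA11 changed by 1.95 ± 0.19. IAA29 (AT4G32280; chromosome 4, 15583387 to 15584769), also a PIF target, went from 3.04 to 4.02, a change of 0.97 ± 0.34 that only just passed (edgeR adjusted p = 0.0497) and lost its call in 10 of the alternative settings, each single library left out among them. The family summed to 2339 to 2419 CPM in high and 3399 to 3464 CPM in low R/FR at 45 min, and 2395 to 2441 CPM in high and 6206 to 6262 CPM in low R/FR at 90 min.

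Of 9 auxin-inactivating genes (GH3 and DAO1), 5 rose and 0 fell by the edgeR test (0 at an unadjusted p under 0.05, by DESeq2 or by limma-voom), with a median of 1.70. GH3.5 held 69.2 and 78.5 CPM in high and 228 and 240.1 CPM in low R/FR at 45 min, and 63.3 and 63.1 CPM in high and 858 and 858 CPM in low R/FR at 90 min, and its response grew from 1.66 to 3.76. GH3.6 changed by 1.70 ± 0.16, from a response not called at 45 min. GH3.2 changed by 2.48 ± 0.65 at levels of 0.253 to 5.65 CPM and lost its call without the first low R/FR library of 90 min (edgeR adjusted p = 0.0593). Of 63 SAUR genes, whose small proteins activate wall acidification, 21 rose and 6 fell. AT1G29490, annotated as SAUR-like, held 1 and 0.602 CPM in high and 6.43 and 6.17 CPM in low R/FR at 45 min, and 0.55 and 0.456 CPM in high and 70.5 and 61.1 CPM in low R/FR at 90 min, and SAUR35 changed by 3.3 ± 0.37. SAUR59 and SAUR32 fell (-2.25 and -1.74). The SAUR list had a median response of 0.92 at 45 min and 2.20 at 90 min.

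Of 15 auxin carriers, 7 rose and 1 fell. PIN3, an efflux carrier that moves auxin sideways in the hypocotyl, held 316 and 309.7 CPM in high and 498 and 486 CPM in low R/FR at 45 min, and 274 and 300.1 CPM in high and 806 and 876 CPM in low R/FR at 90 min, and its response went from 0.65 ± 0.13 to 1.55 ± 0.13. PIN7 and PIN4, of the same family, changed by 1.11 ± 0.13 and 1.06 ± 0.13; neither was called at 45 min. Of 18 proton pumps and PP2C.D phosphatases, which SAUR proteins inhibit to free the pumps, 8 rose and 1 fell. PP2C.D1 held 0.515 and 0.656 CPM in high and 2.17 and 4.07 CPM in low R/FR at 45 min, and 0.44 and 0.75 CPM in high and 45.8 and 44.1 CPM in low R/FR at 90 min and changed by 3.82 ± 0.65, and PP2C.D2, PP2C.D8 and PP2C.D3 changed by 1.71, 1.51 and 0.65.

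**Figure D3:**
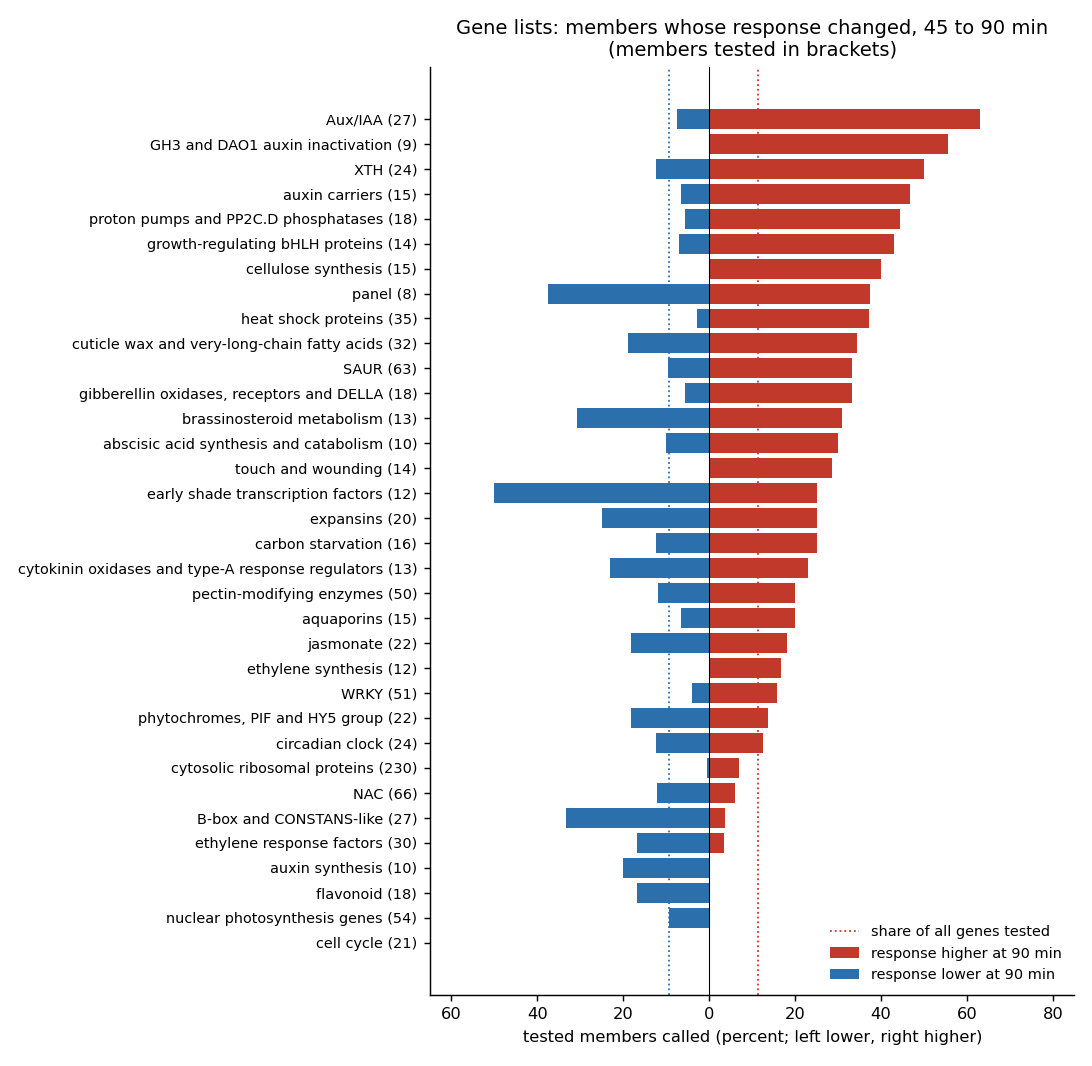
Bars give the percent of tested members of each list whose response rose (right, red) or fell (left, blue) between 45 and 90 min at adjusted p under 0.05, with the number tested in brackets; dotted lines mark 11.4% and 9.37%, the shares over all genes tested. Aux/IAA genes reach the farthest right with 17 of 27, and the early shade transcription factors the farthest left with 6 of 12.

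Among other hormone pathways the calls went both ways. Of 13 brassinosteroid genes 4 rose and 4 fell. The synthesis genes ROT3, CYP90D1 and CPD, all cytochrome P450 genes, fell (-2.75, -2.34 and -1.46). ROT3 held 96.1 and 107 CPM in high and 146 and 135 CPM in low R/FR at 45 min, and 97.5 and 110.4 CPM in high and 20.7 and 22.1 CPM in low R/FR at 90 min, so it was above high R/FR at 45 min and below it at 90 min. CPD changed sides likewise, with responses of 0.31 and -1.16. SOB7, which inactivates brassinosteroids, rose by 2.0 ± 0.21.

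Of 18 gibberellin genes 6 rose and 1 fell. GA20OX2 and GA3OX1, of the last steps of gibberellin synthesis, rose by 1.80 ± 0.22 and 2.62 ± 0.30, and the DELLA repressor genes GAI and RGL3 by 1.1 ± 0.16 and 1.85 ± 0.20. GA20OX2 held 8.16 and 7.77 CPM in high and 14.2 and 16.6 CPM in low R/FR at 45 min, and 9.18 and 10.6 CPM in high and 67.6 and 65.8 CPM in low R/FR at 90 min. Of 12 ethylene synthesis genes, 2 rose (16.7%, against 11.4% of all genes tested), both for ACC synthases. By the edgeR test 0 fell (1 at an unadjusted p under 0.05, 0 by DESeq2 and 1 by limma-voom). ACS6 changed by 3.33 ± 0.36. ACS4 had 3 and 39 counts over the high and low R/FR pairs at 45 min and 7 and 2466 at 90 min; its call (edgeR adjusted p = 0.0393) was lost in 7 of the alternative settings.

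Of 13 cytokinin oxidase and response regulator genes 3 rose and 3 fell (23.1% each), against 11.4% and 9.37% of all genes tested. CKX6 and CKX5, which break cytokinin down, rose by 1.75 and 1.80. CKX6 held 31.2 and 31.6 CPM in high and 45 and 57.1 CPM in low R/FR at 45 min, and 8.46 and 10.1 CPM in high and 48.2 and 53.4 CPM in low R/FR at 90 min, level in low R/FR and falling in high R/FR, and CKX5 fell in high R/FR too (-1.64). The type-A regulator genes ARR6 and ARR8 fell between the times in high R/FR (-1.92 and -0.90) and further in low R/FR, with changes of -1.97 and -0.87. Of 22 jasmonate genes 4 rose and 4 fell (18.2% each). Among them were ST2A, a hydroxyjasmonate sulfotransferase, at 2.64 ± 0.41, JAZ3 at 0.86, JAZ9 at -1.25 and JAZ2 at -0.97. JAZ proteins repress jasmonate responses. Of 10 abscisic acid genes 3 rose (30%) and 1 fell (10%). NCED3, of the rate-limiting step of synthesis, changed by 1.46 ± 0.32, the catabolic CYP707A1 and CYP707A3 by 1.76 ± 0.23 and 2.24 ± 0.50, and ABA1, of an early step of synthesis, by -0.34 ± 0.09.

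Of 24 XTH genes 12 rose and 3 fell, with a median change of 1.56. XTH9 held 14.1 and 12 CPM in high and 20.1 and 22.4 CPM in low R/FR at 45 min, and 7.78 and 8.15 CPM in high and 107 and 107 CPM in low R/FR at 90 min, and XTH15 (AT4G14130; chromosome 4, 8137051 to 8138281) held 3.32 and 4.21 CPM in high and 4.45 and 4.52 CPM in low R/FR at 45 min, and 3.96 and 3.13 CPM in high and 28.2 and 31 CPM in low R/FR at 90 min. XTH15 had lights that differed little at 45 min (0.25, adjusted p = 0.766) and changed by 2.81 ± 0.26 (edgeR adjusted p = 7.07e-09). XTH32 moved the other way with 314 and 320.4 CPM in high and 284 and 269.8 CPM in low R/FR at 45 min, and 238 and 215 CPM in high and 68.2 and 66 CPM in low R/FR at 90 min, a change of -1.56 ± 0.12. The family's summed level therefore shifted less than its members: 3798 to 3839 CPM in high and 3530 to 3698 CPM in low R/FR at 45 min, and 3366 to 3590 CPM in high and 4420 to 4603 CPM in low R/FR at 90 min.

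Of 20 expansin genes, whose proteins loosen the wall, 5 rose and 5 fell. EXLA2 rose by 4.14 ± 0.34 and EXPA11 by 0.96 ± 0.16, the latter from -0.43 to 0.53. EXPB3 held 578 and 596 CPM in high and 596 and 647 CPM in low R/FR at 45 min, and 466 and 458 CPM in high and 169 and 158 CPM in low R/FR at 90 min, a change of -1.58 ± 0.15. Of 15 cellulose synthesis genes 6 rose and 0 fell by the edgeR test (1 at an unadjusted p under 0.05, 0 by DESeq2 and 1 by limma-voom). CESA6 and CESA3, catalytic subunits of the primary wall, rose by 0.93 ± 0.12 and 0.58 ± 0.13, COB, which orients cellulose deposition, by 0.68 ± 0.12, and CESA5 by 0.41 ± 0.13, a call lost in 6 of the 8 fits without 1 library. Of 50 genes annotated as pectin-modifying, 10 rose (20%) and 6 fell (12%), against 11.4% and 9.37% of all genes tested. The group here includes inhibitors of pectin methylesterase. AT4G25260 and AT3G49220, both annotated in the invertase/pectin methylesterase inhibitor family, changed by 2.84 ± 0.24 and 2.25 ± 0.18, AT3G10720 by 2.60 ± 0.26 and AT1G14890 by -1.56 ± 0.15.

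XTH22 is also known as a touch-induced gene and is itself 1 of the 14 touch and wounding genes tested. Of these 14, 4 rose and 0 fell by the edgeR test (1 at an unadjusted p under 0.05, 0 by DESeq2 and by limma-voom). Besides XTH22 these were the calmodulin-like genes TCH2 and TCH3 and the repressor gene JAZ7. TCH2 held 28 and 31.4 CPM in high and 31.8 and 39.6 CPM in low R/FR at 45 min, and 22.2 and 24 CPM in high and 146 and 175 CPM in low R/FR at 90 min. TCH3 held 149 and 204 CPM in high and 122 and 132 CPM in low R/FR at 45 min, and 69.5 and 55 CPM in high and 154 and 166 CPM in low R/FR at 90 min, so its change of 1.83 ± 0.44 includes a drop of -1.5 in high R/FR. JAZ7 changed by 3.53 ± 1.0 at levels under 2 CPM. The list summed to 266 to 355 CPM in high and 273 to 302 CPM in low R/FR at 45 min, and 149 to 194 CPM in high and 999 to 1128 CPM in low R/FR at 90 min with XTH22 included, and the part of handling in these results was not tested.

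Of 14 growth-regulating bHLH genes 6 rose and 1 fell. PRE6 (KIDARI) and PRE5, small bHLH proteins that promote cell elongation, rose by 2.19 ± 0.32 and 1.82 ± 0.30, BEE1 by 2.34 ± 0.29 and AIF3, of a growth-inhibiting group, by 1.13 ± 0.17. PRE6 held 19.2 and 16.2 CPM in high and 107 and 108 CPM in low R/FR at 45 min, and 12 and 13.5 CPM in high and 335 and 372 CPM in low R/FR at 90 min. BEE1 held 19.6 and 20.6 CPM in high and 78.2 and 77.3 CPM in low R/FR at 45 min, and 9.84 and 9.81 CPM in high and 193 and 192 CPM in low R/FR at 90 min, with a drop in high R/FR of -1.03 (edgeR adjusted p = 0.00504). PRE6, PRE5 and BEE1 were already called higher in low R/FR at 45 min, and AIF3 was not.

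Surface and transport genes were mixed. Of 32 wax and very-long-chain fatty acid genes 11 rose and 6 fell. KCS11, a fatty acid elongase subunit, rose by 1.24 ± 0.13 and CYP86A8, a fatty acid hydroxylase of cutin synthesis, by 1.25 ± 0.13. CER6, the main elongase subunit of stem wax, and CER5, a wax export transporter, fell (-1.27 and -0.91); CER6 held 746 and 766 CPM in high and 725 and 761 CPM in low R/FR at 45 min, and 739 and 760.1 CPM in high and 308 and 305 CPM in low R/FR at 90 min. Of 15 aquaporin genes 3 rose (20%) and 1 fell (6.67%), against 11.4% and 9.37% of all genes tested. PIP3 changed by 0.88 ± 0.13, PIP1;4 by 0.70 ± 0.11, PIP2E by 0.29 ± 0.11, and PIP2A by -0.32 ± 0.10. The calls of PIP2E and PIP2A were lost in 13 and 3 of the alternative settings.

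Of 54 nuclear photosynthesis genes 0 rose and 5 fell by the edgeR test (0 rose at an unadjusted p under 0.05, by DESeq2 or by limma-voom), a share of falls close to the background, with a median change of -0.12. The light-harvesting genes LHCB7, LHCA2*1, LHCB1.1 and LHCB1.5 changed by -0.56, -0.49, -0.47 and -0.44, and the calls of the last 3 were lost without the second high R/FR library of 45 min; LHCB1 copies are near-identical. Of 18 flavonoid genes 0 rose and 3 fell (16.7%) by the edgeR test. At an unadjusted p under 0.05, by DESeq2 or by limma-voom, 0 rose as well. The 3 that fell were the glycosyltransferase genes UGT78D1 (-1.53) and UGT78D2 (-0.54) and the chalcone isomerase gene CHI (-1.12). Of 24 clock genes 3 rose and 3 fell, 12.5% each way and near the 11.4% and 9.37% of all genes tested. CHE, a repressor of CCA1, rose by 1.65 ± 0.17, LNK4 by 0.62 ± 0.10 and TOC1 by 0.61 ± 0.14. RVE1, which links the clock to auxin synthesis, held 74 and 81.8 CPM in high and 56.2 and 57.3 CPM in low R/FR at 45 min, and 141 and 159.7 CPM in high and 74.8 and 73.7 CPM in low R/FR at 90 min, higher at 90 than at 45 min in both lights and more so in high R/FR, a change of -0.56 ± 0.13.

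Of 21 cell cycle genes 0 were called in either direction by the edgeR test (1 rose and 1 fell at an unadjusted p under 0.05, 0 by DESeq2 and by limma-voom), at a median of 0.01; CYCD2;1 and CYCA2;1 had the smallest p (adjusted 0.111 and 0.0784). Of 230 cytosolic ribosomal protein genes 16 rose and 1 fell, below the background in both directions, with a median of 0.11. AT5G39850 and AT3G57490, annotated as ribosomal proteins S4 and S5, changed by 1.36 ± 0.18 and 1.0 ± 0.19. Of 35 heat shock protein genes 13 rose and 1 fell. HSP81-2, a cytosolic HSP90, held 138 and 132 CPM in high and 142 and 154 CPM in low R/FR at 45 min, and 179 and 190.1 CPM in high and 343 and 375 CPM in low R/FR at 90 min and changed by 0.83 ± 0.15, and HSP101 and the endoplasmic reticulum chaperone BIP2 changed by 0.85 ± 0.17 and 0.58 ± 0.12; all 3 also rose between the times in high R/FR.

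Of 16 carbon starvation genes 4 rose (25%) and 2 fell (12.5%). EXO, EXORDIUM itself, held 3.95 and 4.57 CPM in high and 7.81 and 8.87 CPM in low R/FR at 45 min, and 3.71 and 4.61 CPM in high and 77.9 and 90 CPM in low R/FR at 90 min and changed by 3.37 ± 0.29, and TPS11 and TPS10, trehalose phosphate synthase-like genes, changed by 1.61 ± 0.26 and -0.79 ± 0.17. TPS11 rose in high R/FR as well (1.68). Of 51 WRKY transcription factor genes 8 rose (15.7%) and 2 fell (3.92%), against 11.4% and 9.37% of all genes tested. WRKY18 changed by 2.59 ± 0.41, WRKY65 by 2.0 ± 0.23, WRKY48 by 1.94 ± 0.32 and WRKY3 by -0.65 ± 0.13. Of 30 ethylene response factor genes 1 rose (3.33%) and 5 fell (16.7%), among them RAP2.4 at 1.18 ± 0.14 and ERF8 at -1.18 ± 0.19. Of 66 NAC genes 4 rose (6.06%) and 8 fell (12.1%), against 11.4% and 9.37% of all genes tested. Among them were NAC102 at 0.84 ± 0.16 and NAC1 at -1.36 ± 0.32. Among guard cell and vascular markers, MYB60 changed by -1.58 ± 0.20, SUC2 by 0.60 ± 0.16, TMO5 by 0.49 ± 0.14 and VND6, also named NAC101, by -1.30 ± 0.35. Of 8 mesophyll markers 1 fell, the LHCB1.1 given above. The other guard cell markers and KNAT1 (0.04, edgeR adjusted p = 0.943) had no called change. Of the 10 guard cell markers 6 lay below 1 CPM in all 8 libraries, where a change is hard to detect. The part of tissue composition in the results was not tested.

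In 18 genes the response was called lower at 45 and higher at 90 min, and in 15 higher and then lower. GATA2, GH9B8, ROT3 and CPD belong to the second group and EXPA11 to the first. In 25 genes a response called lower at 45 min was not called at 90 min and the change was called, and in 21 genes the same held for a response called higher. There were 13 genes called higher at both times with a called decrease; they are named here after their values were seen. Besides PIL1, HFR1, ATHB2, ATHB4, HAT3 and PHYB, these were the boron transporter gene BOR1 (-0.51), EXPA9 (-0.59), BRG3 (-0.73) and 4 genes known by locus, AT1G21050 (-0.51), AT3G08570 (-0.96), AT3G60410 (-0.66) and AT4G32290 (-0.76). AT3G08570 is annotated as an NPH3 family protein, a family tied to phototropism. EXPA9 lost its call in 3 of the fits without 1 library.

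**Figure D4:**
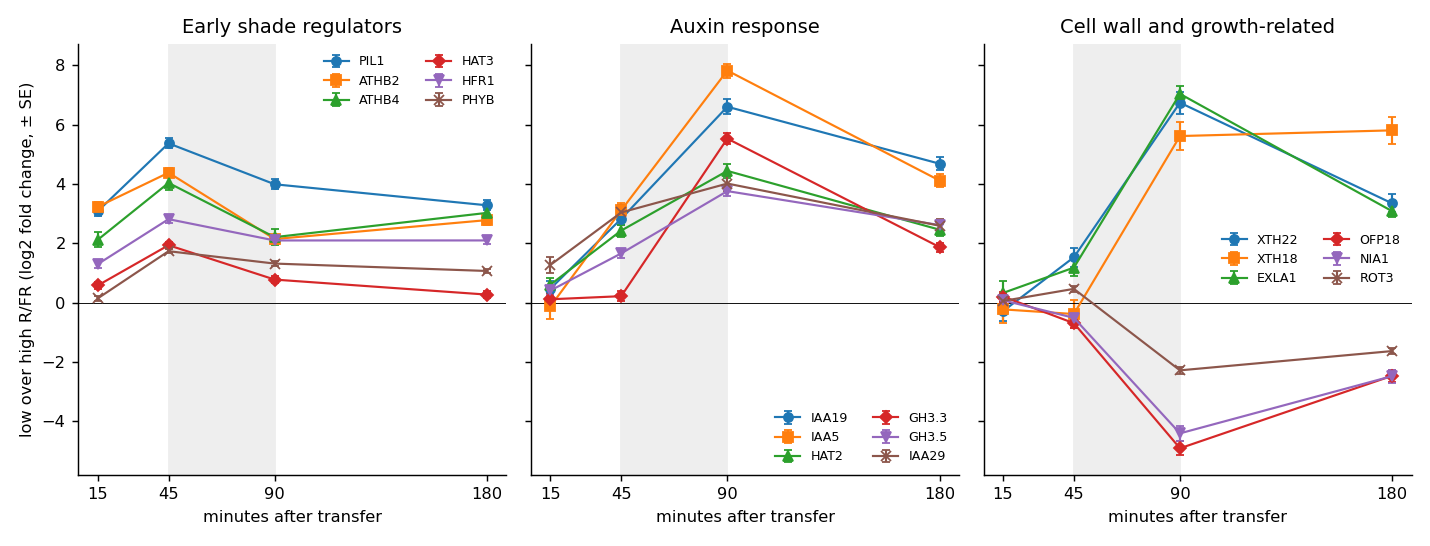
Lines give the log2 fold change of low over high R/FR in hypocotyl (± SE, 2 libraries a group) at 15, 45, 90 and 180 min, with the interval from 45 to 90 min shaded. PIL1 and ATHB2 peak at 45 min, IAA19 and XTH22 rise steeply within the shaded interval, and NIA1 and OFP18 fall within it.

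The neighbouring times, whose comparisons share libraries with this one at 90 or 45 min, place the interval. At 15 min 36 genes (0.179%) were called in hypocotyl, 32 (0.159%) higher and 4 (0.0199%) lower in low R/FR, and at 180 min 12841 (63.8%), 6273 (31.2%) higher and 6568 (32.6%) lower. From 90 to 180 min the response changed in 8790 genes (43.7%), upward in 4108 (20.4%) and downward in 4682 (23.3%). ATHB2 had responses of 3.24, 4.38, 2.15 and 2.78 at 15, 45, 90 and 180 min, and PIL1 of 3.09, 5.37, 3.99 and 3.29. IAA19 had 0.47, 2.83, 6.61 and 4.69, and GH3.3 0.11, 0.22, 5.53 and 1.88. XTH19 was higher at 180 min (8.99) than at 90 min (6.93), whereas EXL1 was lower (3.34 against 7.87). GATA2, lowered at 90 min, stood at 0.10 at 180 min. In the authors' deposited tables, XTH18 has log2 fold changes of -0.18 at 45 min and 5.64 at 90 min, and ATHB2 of 4.38 and 2.15.

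The cotyledons, whose libraries carry the same sample numbers as the hypocotyls, changed in fewer genes over the same interval, 462 (2.3%), of which the response rose in 146 (0.725%) and fell in 316 (1.57%). Of the 2285 hypocotyl rises 58 were also called rising in cotyledon, 2.54% of the hypocotyl and 39.7% of the cotyledon list, and 63 were called falling there. Of the 1886 falls 148 were shared, 7.85% and 46.8%, and 32 were called rising in cotyledon. The difference between the organs was tested directly and called in 2153 genes (10.7%). Hypocotyl minus cotyledon was positive in 1377 (6.84%) and negative in 776 (3.86%). Of these, 1224 and 679 were called rising and falling in hypocotyl, respectively. With the sample number shared by the organs as a block over their 16 libraries, the positive and negative counts were 1515 and 1359. Those libraries without the block gave 1253 and 966. XTH18 changed by 6.00 ± 0.67 in hypocotyl and -0.15 ± 0.67 in cotyledon, a difference of 6.15 ± 0.95 (edgeR adjusted p = 0.000146).

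GH3.3 rose by 1.44 ± 0.37 in cotyledon, and the organs differed by 3.88 ± 0.41 (edgeR adjusted p = 3.05e-07). NIA1 fell in hypocotyl and stood at 0.75 ± 0.30 in cotyledon (difference -4.65 ± 0.43, edgeR adjusted p = 1.83e-07), and ABCG19, an ABC transporter gene, at -2.74 ± 0.24 and 1.39 ± 0.26 (difference -4.13 ± 0.35). ATHB2 fell in both organs (-2.24 in hypocotyl and -1.92 in cotyledon), and the difference of -0.32 ± 0.31 was not called (edgeR adjusted p = 0.639). For AT5G22355 and ETC1, which the rule for the organ difference also drew, 1 cotyledon group had 0 counts, and no organ difference in level is given. AT5G22355, a C1 domain protein gene, had 5, 11, 11 and 0 counts in the cotyledon pairs (high and low R/FR at 45 min, then at 90 min), and ETC1, a small MYB repressor gene, had 6, 0, 10 and 11.

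**Figure D5:**
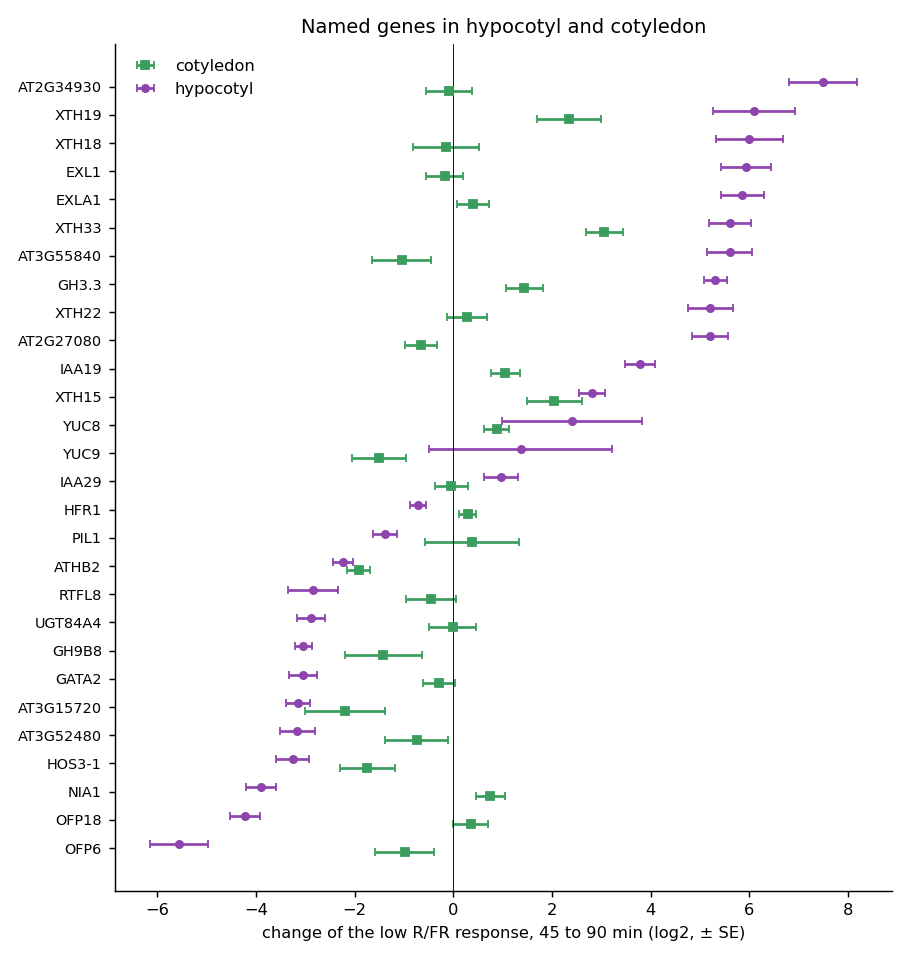
Points give the log2 change of the low R/FR response from 45 to 90 min (± SE) in hypocotyl (circles) and cotyledon (squares) for the 8 panel genes and the 10 most increased and 10 most decreased genes of the hypocotyl. The increased genes lie between 5.20 and 7.49 in hypocotyl and between -1.04 and 3.07 in cotyledon, while ATHB2 is close in both. YUC8 and YUC9 rest on few counts in hypocotyl.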

How the data were processed

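Stranded mRNA libraries of hypocotyls and cotyledons were sequenced, per the labels' protocols. Per the submitters' processing notes, which name the TAIR10 build, the tools included Bowtie, TopHat2 2.0.9, limma 3.18.2, edgeR 3.4.0, cutadapt 1.2.1 and HTSeq 0.5.4p3; their settings and the strand setting of the counting are not given in the sources used here. The authors deposited raw read counts per gene (33602 genes and 5 summary lines, left out here) and tables of log2 fold changes with p-values, used for gene positions, descriptions and 1 comparison. In the 8 libraries reads without a feature were 1.12 to 1.26% and ambiguous reads 0.676 to 0.777% of the reads assigned or failing assignment, and 7.99 to 11.2 non-unique alignments stood against 100 gene counts.

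Everything else was computed in R 4.3.3 with edgeR 4.0.16. TMM (trimmed mean of M values) scaling was applied (factors 1.22 to 1.29 in the 8 libraries). Genes were kept by the edgeR filter at a minimum count of 10 and total of 15, and 1 mean was fitted to each of 18 groups over all 36 libraries in a robust quasi-likelihood model with 18 residual degrees of freedom. P-values were adjusted over all 20126 genes by Benjamini-Hochberg, and SE is the absolute log2 fold change over the square root of its F statistic. CPM values are counts scaled by these library sizes. Counts were also simulated with the same common dispersion for all genes, and 200 genes above a minimum count were changed in low R/FR at 90 min only. There the fit recovered 91% of 2-fold and 99% of 4-fold changes, with 15 false calls among the unchanged of 19880 genes. Spread that differs between genes was not simulated, so these rates can be better than those in the data. Hypocotyl and cotyledon libraries of a light and time share a sample number in the descriptions. Their deviations correlated weakly, at 0.10 to 0.28 in all 4 groups, and the shared number served as a block in an alternative fit. Replicates were not copies: chi-square per degree of freedom ran from 4.98 to 9.68.

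Named genes were a panel of 8, the 10 most increased and 10 most decreased called genes whose average log2 CPM reached 1 and whose library differences did not overlap between the times, up to 4 called members of each list with the smallest p (2 where none was called), and 5 in each direction for the organ difference. The result of 1 further gene drawn by this rule is not reported here. The comparison, lists and rules were chosen with earlier results of these data known, and no list was given a test of its own. Lists took genes by symbol or by words of the deposited descriptions; 1 listed expansin name matched no gene. Promoter windows came from RefSeq on TAIR10.1. Alternatives were RLE scaling, other filters, DESeq2 1.42.0, limma-voom (limma 3.58.1), a fit without the robust option, replicate blocks, fewer libraries and each library left out in turn.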

Additional observations from a re-analysis of the deposited data

Results flagged for a closer look

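The results below were drawn because the change of the low R/FR response from 45 to 90 min differed between hypocotyl and cotyledon by a direct test (an interaction contrast in the edgeR fit), which called 2153 genes. Values are hypocotyl minus cotyledon on the log2 scale, and all of them have an adjusted p under 0.05 from that test. Among the genes with an increased response in hypocotyl, the difference was 7.58 for AT2G34930, 6.65 for AT3G55840, 6.15 for XTH18, 6.11 for EXL1, 5.86 for AT2G27080, 5.45 for EXLA1 and 4.93 for XTH22. It was 3.88 for GH3.3 and 2.54 for XTH33, which also rose in cotyledon, and 3.74 for XTH19 and 2.72 for IAA19, which had no called change there. Among the genes with a decreased response, it was -4.65 for NIA1, -4.58 for OFP18, -4.57 for OFP6, -4.13 for ABCG19, -2.87 for UGT84A4, -2.77 for GATA2, -2.42 for AT3G52480, -2.39 for RTFL8 and -1.01 for HFR1. Of the 132 named list genes 86 also had a called organ difference, against 10.7% of all genes, but they were picked by the hypocotyl change, which is part of that difference. No group of libraries was large enough for a test of single outlying samples.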

How the results depend on the processing

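The main count of 4171 changed genes ran from 4013 (DESeq2) to 4626 (the 8 libraries alone with the replicate number as a block) in the fits with all 8 libraries, and from 3448 to 3721 with 1 library left out; these settings shared 78.5 to 99.2% of the reported genes. Upward calls were 1683 to 1793 and downward calls 1758 to 1956 with 1 library left out. Leaving 1 out gave 359 to 660 calls at 45 min, 5935 to 7720 at 90 min, 6085 to 7850 between the times in low R/FR, 661 to 1646 in high R/FR and 1842 to 2034 for the organ difference; a group then has 1 library, which the fit assumes to vary like the others. Across the named genes there were 2957 values under alternatives. Of these, 2883 stayed on their side of the threshold, 69 lost their call, in 16 genes, and 5 gained one. No gene called in the main or the alternative fit reversed direction, and direction was not followed where neither called it. The calls of PIP2E, IAA29, TAA1, ACS4 and CESA5 were lost most often, and the cause was not tested. All 140 values of the organ difference in the 10 genes drawn for it stayed called. Across the hypocotyl groups, same-numbered libraries deviated with correlations of -0.05 to 0.18, a range that overlaps the 0.10 to 0.28 between the organs. Correlations this weak do not settle whether replicate numbers pair the samples. With the replicate block 4400 genes changed. For the organ difference the replicate block over all 36 libraries called 2342 genes, and the 16 libraries with the shared sample number as a block 2874. Without that block, a fit chosen after seeing the data, the 16 libraries called 2219. Of 104 named genes with a called organ difference, the fit with the shared number as a block lost 1, JAZ7, and it gained 17. No alternative from the plan was left out. With 2 libraries a group, the design detects low-count genes poorly: YUC8 and YUC9 had at most 34 counts over a pair of hypocotyl libraries.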
